A study of Drosophila melanogaster with 33 samples.

Results

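The labelled RNA of fruit fly embryos at cellular blastoderm was set against that of embryos at syncytial blastoderm, the stage before it. The comparison used 4 of the 33 libraries of the study, all eluates of poly(A) RNA: 2 of cellular blastoderm, from embryos injected with 250 mM and with 50 mM 5-ethynyl uridine (5-EU), and 2 of syncytial blastoderm, at the same 2 doses. They were chosen by their labels alone. All embryos were Drosophila melanogaster of the Oregon R wild-type strain and were staged by their shape. 5-EU is a uridine analogue that is built into RNA made after the injection; that RNA was biotinylated and caught on streptavidin beads, and what the beads released is the eluate. The RNA before the pull-down, the input, is called total RNA here. The remaining libraries were inputs and unbound fractions, embryos of nuclear cycles (NC) 7-9 and 9-10, and a set made after depletion of ribosomal RNA. The labels give neither the number of embryos in a preparation nor the time between injection and harvest. No eluate from embryos without 5-EU was analysed here, so an eluate level is labelled RNA plus any unlabelled RNA held by the beads, and the share of the second was not tested.

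In the syncytial blastoderm the nuclei of the fly embryo divide quickly and together in 1 shared cytoplasm just under the egg surface. At cellular blastoderm the divisions stop, membranes grow down between the nuclei to make the first cells, and gastrulation follows. The embryo starts with RNA loaded by the mother, much of which is destroyed over this period while the embryo's own (zygotic) genome is switched on. The fast nuclear cycles leave little time to copy a gene, and many of the earliest zygotic genes are short and lack introns. Patterning genes then divide the blastoderm along its axes, and most of them code for transcription factors.

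The depth estimated from the steps between low values was 19700000 and 20700000 reads in the cellular eluates and 19900000 and 4230000 in the syncytial eluates, with the 250 mM library given before the 50 mM library in each pair of values. In the deposited RPKM table a gene without reads stands at 1. A level is the deposited value less 1, scaled to a library sum of 1000000 and then by the median of ratios over the 21 poly(A) libraries, so it is per length of transcript and can be compared between genes. Across genes, log2 levels of the 2 cellular eluates had a Pearson r of 0.939, and those of the 2 syncytial eluates 0.916. The stages were compared with limma on log2(level + 1), with a term for the dose, and a gene was called at an adjusted p below 0.05 over all 8448 genes tested. Since the labels do not tie the preparations to separate collections of embryos, the p-values do not measure the spread between collections. With the dose term they rest on how well the stage difference agreed at the 2 doses, pooled with the spread of other genes. In whole embryos, fewer cells of a type and less RNA per cell cannot be told apart.

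Labelled RNA was called higher at cellular blastoderm for 2673 genes, 31.6% of those tested, and lower for 1144, 13.5%. The levels of the 2 stages did not overlap for 3603 of these 3817 genes. The median gene lay 0.43 higher on the log2 scale at cellular blastoderm, and a change is best read against that shift. It was 0.82 on the values as deposited, with 3612 genes called higher and 749 lower, and 0.15 when the 4 eluates alone set the scale, with 2043 higher and 1685 lower. With the median gene set to no change, 1637 genes were higher and 1894 lower, so the excess of higher calls was lost. Without the dose term, 1102 genes were called higher and 440 lower, and all 1542 of these were also called with it. The fit left 1 residual degree of freedom per gene, beside 9.92 that limma added from the trend over all genes. With 1 library left out and the stage alone in the fit, limma called 1339 genes without the 50 mM syncytial library and 0 without any of the other 3, where 1255 genes (without the 250 mM cellular library), 1333 (without the 50 mM cellular library) and 2052 (without the 250 mM syncytial library) were higher at an unadjusted p below 0.05 and 499, 827 and 706 were lower. A gene is said to have no maternal load where its level in the NC 7-9 input was below 1. Of the genes called higher, 1692 had a maternal load and 981 had none. Of the genes called lower, 1111 had a maternal load and 33 had none.

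**Figure D1:**
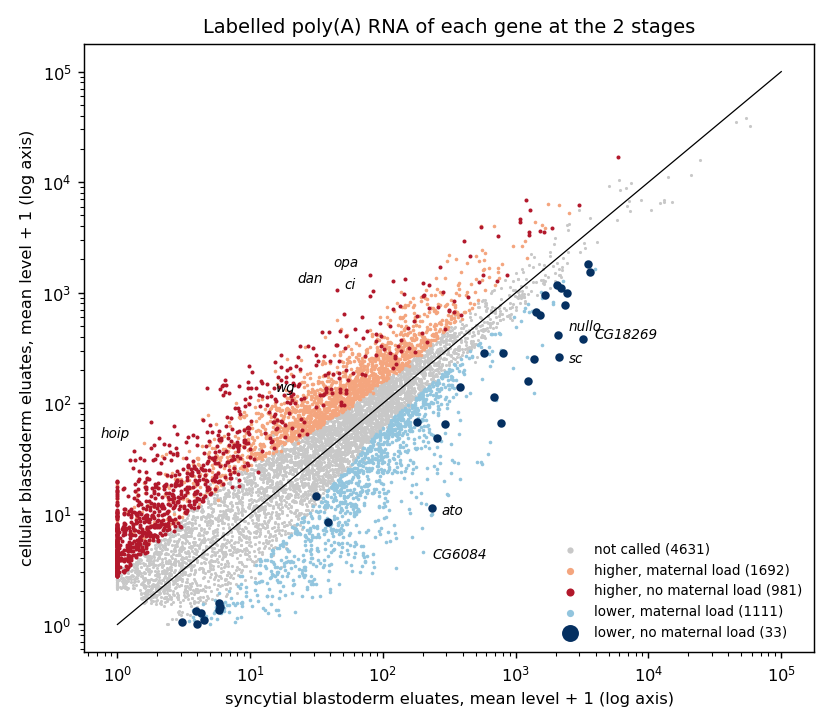
Mean level + 1 of each of the 8448 genes tested, in the 2 cellular-blastoderm eluates (vertical log axis) and the 2 syncytial-blastoderm eluates (horizontal log axis), coloured by call and maternal load; the line marks equal levels. The 33 genes lower at cellular blastoderm without a maternal load (dark blue) include a group at high syncytial levels, with sc, nullo and CG18269 among them.

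The 33 genes without a maternal load that were lower at cellular blastoderm are read here as zygotic genes, from 1 NC 7-9 input library alone. They included 5 proneural genes, which code for basic helix-loop-helix factors that make cells neural: sc, ac and l(1)sc of the achaete-scute complex on the X chromosome, amos and ato. They also held nullo, whose product acts on the actin of the forming cell membranes, the Snail-family genes esg and wor, the BMP ligand gene scw, the homeobox gene zen2, the forkhead gene fd19B and a series of short genes of little known function. Apart from ato, which the rule on the largest changes named, the whole class was looked at after the calls were known. Of the 33, 12 were called without the dose term and all 33 with the median gene set to no change. That setting moved the class further down, from a median log2 difference of -1.90 to -2.32, so it could hardly remove a lower call. On the values as deposited 25 were called, all of them lower, and with the spread taken from all 7 poly(A) eluates 7 were called. Those 7 were zen2 and 6 of the 8 genes with a mean syncytial level below 10, so sc, ac, l(1)sc, ato, amos, nullo, CG18269 and CG13716 all lost their call in that fit. With the spread of all 21 poly(A) libraries 16 of the 33 were called. With any 1 of the 4 libraries left out all 33 differences were below 0, while 13 were called without the 50 mM syncytial library and 0 without any of the other 3. These genes were picked as lower in the same 4 libraries, so their signs with 1 left out could hardly differ. The 2 stages did not overlap in 31 of the 33 (93.9%), beside 66.7% of all genes tested and 94.4% of all genes called.

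The gene sc (FBgn0004170, X chromosome, 396060 to 397497 on dm6, plus strand, 1 exon), which is also a counting element that tells the embryo its number of X chromosomes, was at 281 and 239 in cellular eluates, against 2880.4 and 1317 in syncytial eluates. Both of its neighbours in the complex were also lower: ac (FBgn0000022, X, 370031 to 370947) was at 133 and 93.1 against 871 and 507, and l(1)sc (FBgn0002561, X, 409721 to 410817) was at 211 and 108 against 1659 and 811. For each of the 3 genes both cellular libraries lay below both syncytial libraries. The log2 difference was -2.91 ± 0.27 for sc, -2.57 ± 0.22 for ac and -2.93 ± 0.22 for l(1)sc (SE; limma adjusted p 4.73e-05, 3.55e-05 and 2.18e-05), and all 3 were called without the dose term (adjusted p 0.0295, 0.0288 and 0.0324). With the spread of the 7 eluates the limma adjusted p was 0.208 for sc, 0.268 for ac and 0.0846 for l(1)sc, and with that of 21 libraries 0.0572, 0.0913 and 0.0121, so the calls of sc and ac were lost in both. The 3 genes lie inside the span of CG32816 on the other strand, and how the authors' counting treated strand is not given in the sources used here.

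The other 2 proneural genes lie elsewhere. The gene ato (FBgn0010433, 3R, 8278052 to 8279274), needed for photoreceptors and chordotonal organs later in life, was at 17.5 and 3.19 in cellular eluates, against 294 and 176 in syncytial eluates, and its log2 difference of -4.70 ± 0.41 was the largest of the class (SE; limma adjusted p 3.48e-05). The level of amos (FBgn0003270, 2L, 18596136 to 18596921), an olfactory proneural gene, was 185 and 315 against 1646 and 1114, a log2 difference of -2.48 ± 0.30 (SE; limma adjusted p 1.88e-04). In neither gene did the stages overlap, and with the spread of the 7 eluates neither was called (limma adjusted p 0.0643 for ato and 0.158 for amos). Their usual partner da, which is loaded by the mother and made in all cells, was higher, with 774 and 590.5 in cellular eluates against 277 and 207 in syncytial eluates and a log2 difference of 1.49 ± 0.22 (SE; limma adjusted p 5.42e-04).

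The cellularisation gene nullo (FBgn0004143, X, 7049476 to 7050321) was at 392 and 438 in cellular eluates, against 2752 and 1407 in syncytial eluates, with a log2 difference of -2.25 ± 0.30 (SE; limma adjusted p 2.92e-04, 0.0326 without the dose term and 0.159 with the spread of the 7 eluates). It was the only gene called among the 5 cellularisation genes tested. The others were among the highest labelled RNAs of both stages and were not called: slam, which organises the furrow membrane, was at 10099 and 10794 against 6798 and 5259, bnk, which holds the furrow's actin network open, at 9269 and 8309 against 10473 and 2983, halo at 10691 and 9173 against 8983 and 5890.2 and dunk at 4594 and 7589.7 against 7353 and 6350.1. Their limma adjusted p ran from 0.214 (slam) to 0.738 (dunk). The sixth gene of the list, Sry-alpha, is listed at 0 in all 4 eluates.

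Among the short genes of little known function, CG18269 (FBgn0031719, 2L, 5551838 to 5552756, 1 exon) was at 336 and 422 in cellular eluates, against 4305 and 2162 in syncytial eluates, and CG13716 (FBgn0035563, 3L, 4634436 to 4634789, 1 exon, inside the span of axo on the same strand) at 78.8 and 51.3 against 969 and 588. The log2 differences were -3.02 ± 0.32 and -3.55 ± 0.22 (SE; limma adjusted p 8.40e-05 and 1.14e-05), and both were also called without the dose term but not with the spread of the 7 eluates (adjusted p 0.0511 and 0.0746). A list of 27 such genes had 9 lower, 3 higher and 15 not called, and a median log2 difference of -0.01 against 0.43 over all genes tested, beside 13.5% lower over all genes. On the values as deposited the list's median was 0.36, with 5 higher and 4 lower. The fit without dose called 2 lower and 1 higher. The 3 that rose were led by CG10035, at 3922 and 4005 in cellular eluates against 408 and 682 in syncytial eluates, with a log2 difference of 2.91 ± 0.29 (SE; limma adjusted p 6.18e-05). Others had high levels at both stages and were not called, such as CG14317 at 6183 and 10956 against 6045 and 6208 and CG15382 at 3719.6 and 5376 against 6935 and 4550.3.

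Several genes of the class with smaller falls were labelled well above 10 at both stages. The Snail-family gene esg was at 340.3 and 228 in cellular eluates against 942 and 654 in syncytial eluates, and the BMP ligand gene scw at 379 and 866 against 1631 and 1439. The homeobox gene zen2 was at 130.1 and 148 against 469.6 and 284, and fd19B at 62.6 and 65.7 against 392 and 193. None of these 4 genes overlapped between the stages, and their log2 differences ran from -1.42 (scw, SE 0.32, limma adjusted p 0.00526) to -2.08 (fd19B, SE 0.29, adjusted p 4.01e-04). Near the threshold, CG13711 was at 1307 and 2366 against 3954 and 3093 (limma adjusted p 0.0467). At the low end, 8 of the 33 had a mean syncytial level below 10, where single reads weigh heavily; RacGAP84C, for example, was at 0 and 0.213 against 2.13 and 4.84.

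**Figure D2:**
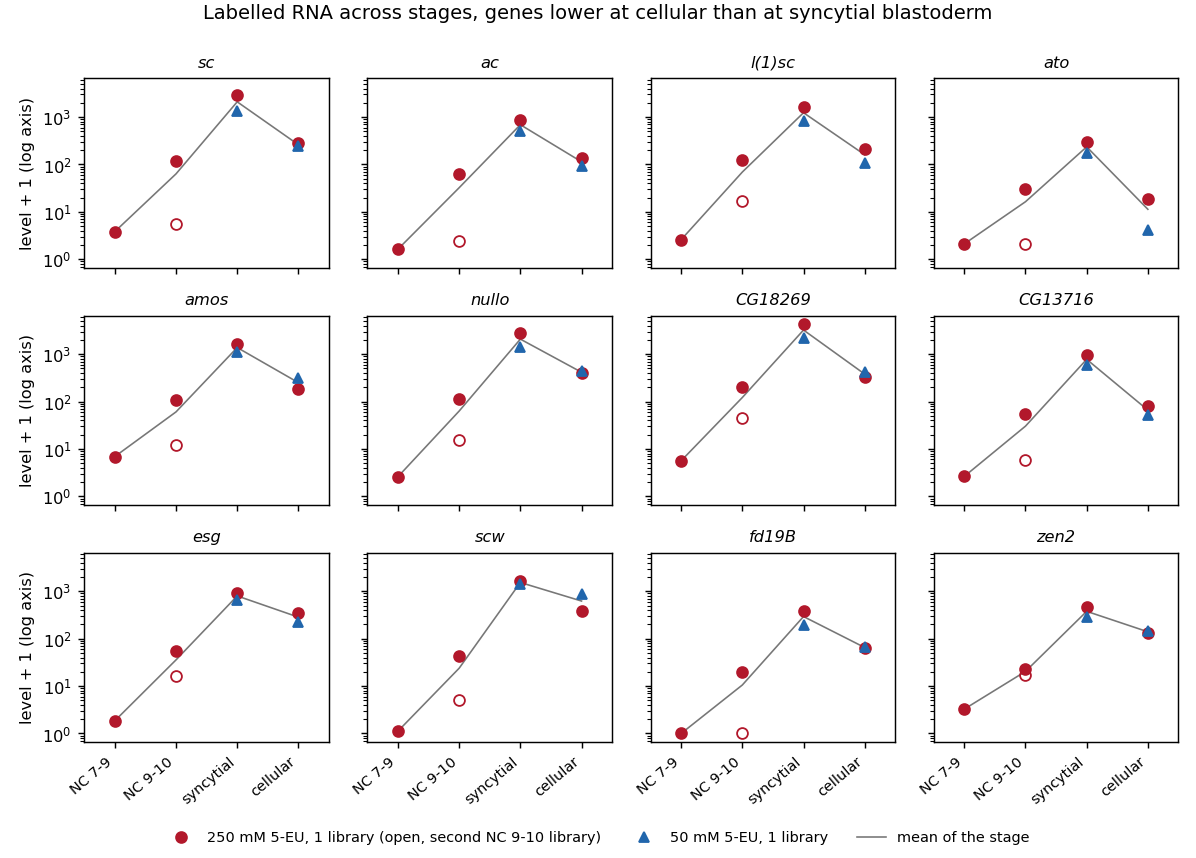
Level + 1 (log axis) in each of the 7 poly(A) eluates, by stage, for 12 of the genes lower at cellular than at syncytial blastoderm without a maternal load; each point is 1 library, circles for 250 mM and triangles for 50 mM 5-EU, and lines join stage means. In all 12 genes both syncytial libraries lie above both NC 9-10 libraries and above both cellular libraries.

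Set beside NC 9-10, a comparison that shares the syncytial eluates and so gives no separate support, most of the class had its highest labelled level at syncytial blastoderm. In 31 of the 33 genes both syncytial eluates lay above both NC 9-10 eluates, and in 28 the mean cellular level was still above the NC 9-10 mean. The gene sc was at 120.2 and 4.47 in the 2 NC 9-10 eluates, nullo at 110.1 and 14.2 and CG18269 at 198 and 44.3. For ato, with 29.6 and 1.09 at NC 9-10, the cellular mean was below the NC 9-10 mean, as in 5 genes of the class. The 2 NC 9-10 libraries were far apart in each of these 4 genes.

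Total RNA of the same preparations gave a mixed picture for the class. Of 7397 genes tested in the inputs, 2914 were called higher at cellular blastoderm (39.4%) and 1814 lower (24.5%). With libraries scaled by their total alone the split was 1480 higher and 2769 lower, so the direction of small changes in total RNA rests on the scaling. With 1 input left out and the stage alone in the fit, limma called 1529 genes without the 250 mM and 1399 without the 50 mM syncytial input, and 0 without either cellular one; at an unadjusted p below 0.05, 1725 genes were then higher and 1141 lower without the 250 mM cellular input, and 1424 and 1309 without the 50 mM one. Of the 33 genes, 26 were tested there, 9 were higher, 6 were lower and 11 were not called, and under the scaling by total alone 5 were higher and 10 lower. The 6 lower ones were ato, CG13716, CG18269, sc, CG16813 and l(1)sc; for sc the input level was 61.6 and 32.8 at cellular blastoderm against 122 and 85.9 at syncytial blastoderm, a log2 difference of -1.17 ± 0.18 (SE; limma adjusted p 0.00327). The 9 higher ones, CG13713, scw, Brd, CG34266, CG13000, CG13711, CG16815, Neu2 and CG15876, had lower labelled and higher total RNA at the later stage; Brd, CG13711, CG15876, CG16815 and Neu2 of them were also higher in total RNA when scaled by total alone. None of the 9 was called lower in labelled RNA by limma without the dose term or with the spread of the 7 eluates. For CG16815 the eluates held 764 and 582 at cellular blastoderm against 2010.4 and 846 at syncytial blastoderm, while the inputs held 187 and 119 against 57.7 and 58.8 (log2 difference 1.34 ± 0.20 (SE), limma adjusted p 0.00335). The Notch-pathway gene Brd had 98.9 and 34.4 against 266 and 90.9 in eluates and 58.1 and 15.1 against 11.5 and 9.21 in inputs (limma adjusted p 0.00190 and 0.0222).

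Whether a gene's change differed between labelled and total RNA was tested over 8548 genes, and none passed limma's adjusted p of 0.05 in the fit with the dose term. At an unadjusted p below 0.05, the log2 difference between the stages was larger in labelled than in total RNA for 2305 genes and smaller for 1570. Without the dose term 1871 genes passed, 1263 and 608, so the number rests on that choice. With the 50 mM syncytial preparation left out and the stage alone in the fit it was 1564, and without any of the other 3 it was 0. It was 1941 when libraries were scaled by their total alone and 3589 with a pseudocount of 5.

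**Figure D3:**
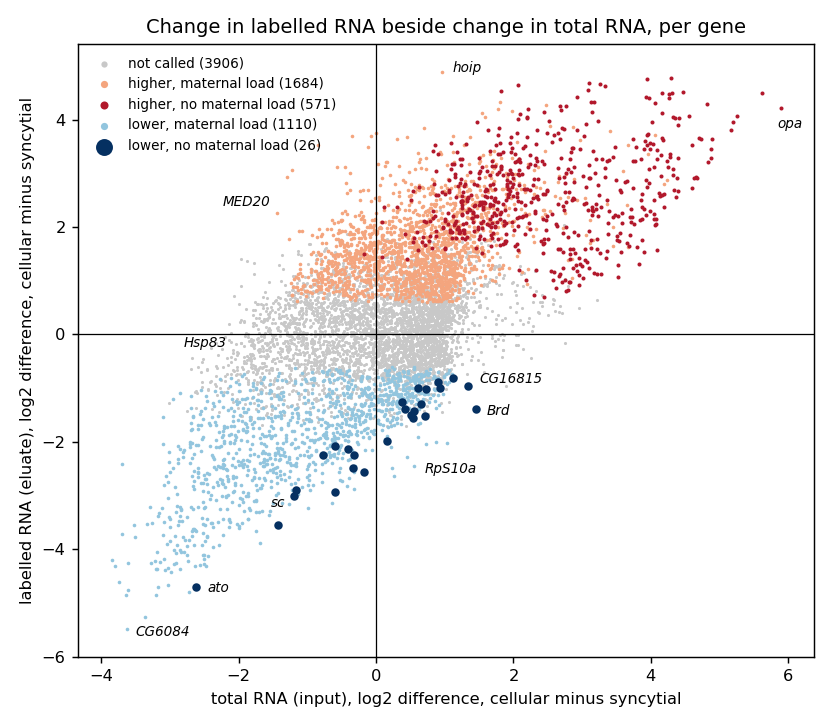
Log2 difference between cellular and syncytial blastoderm in labelled RNA (vertical axis) and in total RNA (horizontal axis) for genes tested in both, coloured as in the plot of levels. Of the genes lower in labelled RNA without a maternal load (dark blue), 9 lie to the right with higher total RNA, Brd and CG16815 among them, and 6 to the left with lower total RNA, ato and sc among them.

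The rRNA-depleted libraries hold 1 eluate per stage, at 250 mM, with an estimated 31300000 reads at cellular and 2140000 at syncytial blastoderm, and so allow no test. Of the 8448 genes, 3246 were at least 2-fold higher in the cellular eluate (38.4%) and 1747 at least 2-fold lower (20.7%). Of the 33 genes, 25 were at least 2-fold lower there and 3 at least 2-fold higher. The level of CG18269 was 963 in the cellular and 14681 in the syncytial eluate, that of sc 381 and 2539, and that of nullo 154 and 643.

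The class shared features that the call did not use. Of the 33 genes, 23 had no intron in any annotated transcript (69.7%), against 23.0% of all tested genes without a maternal load and 19.0% of those called higher. The median gene length was 917 bp, against 2086 bp and 2548 bp in those 2 groups. The median syncytial level was 689, against 1.72 and 1.07 in the same groups. Whether length and introns go with that level rather than with the fall was not tested. Among the 25 with a mean syncytial level of 10 or more, 20 had no intron and the median length was 846 bp. The genes lay on all large chromosome arms, 12 of them on 3L, 8 on 2L, 6 on X, 5 on 3R and 2 on 2R. Several were neighbours: CG34266, CG15876, CG13713 and CG13712 lie in 1 stretch of 3L between 4677832 and 4709890, CG16813 and CG16815 are 1311 bp apart on 2L, and sc and l(1)sc are 12224 bp apart on X. The span of 14 of the 33 overlaps another annotated gene, for instance RhoGEF64C on 3L, and reads of such genes may be shared.

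Over all genes without a maternal load, the share called higher grew with gene length, and 20 of the 33 called lower were up to 1 kb long. Genes up to 1 kb long were higher in 40.6% and lower in 4.37% of 458. From 1 to 2 kb the share lower was 1.80%, from 2 to 5 kb 0.427% and from 5 to 20 kb 0.270%. Genes over 20 kb were higher in 69.7% of 178, and 1 of them was lower (0.562%). The median log2 difference was 1.10 in the shortest and 2.23 in the longest class, and the median cellular level 5.90 and 14.5. A long gene gives more reads at the same level, which makes a call easier, and this was not tested apart from length. The median syncytial level was 2.23 in the shortest and 1.74 in the longest class, which leaves little room for a lower call. The level needed for testing could be reached in the 2 cellular eluates alone.

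**Figure D4:**
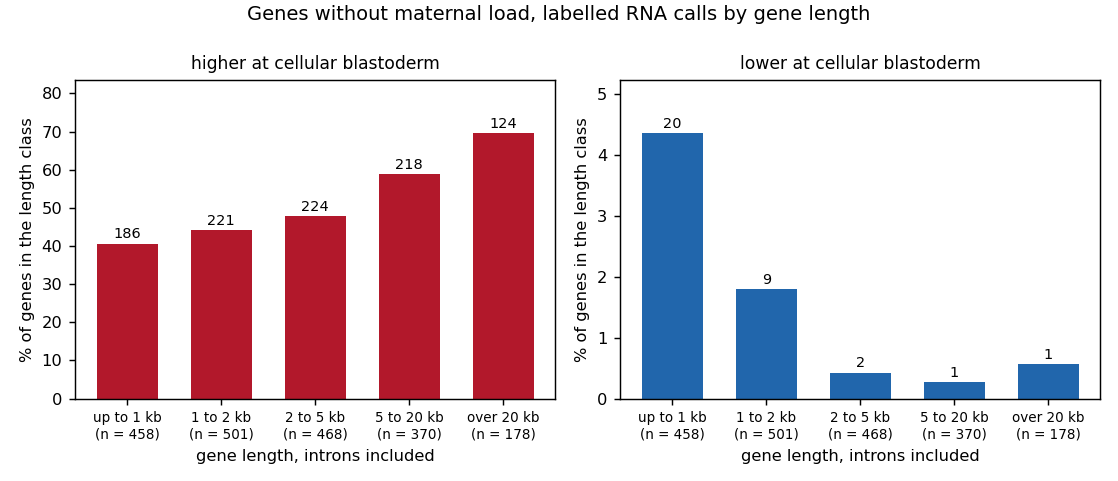
Percentage of genes without a maternal load called higher (left) and lower (right) at cellular than at syncytial blastoderm, by gene length with introns; numbers over the bars count the genes called, and the 2 axes differ in scale. The share called higher goes from 40.6% up to 1 kb to 69.7% over 20 kb, while 20 of the 33 genes called lower are up to 1 kb long.

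The segmentation genes, which divide the embryo into repeated stripes in a cascade of gap, pair-rule and segment polarity genes, rose in most of their members. Of 15 gap, head and terminal genes 9 were called higher and 1 lower (median log2 difference 0.81), of 9 pair-rule genes 6 were higher and 0 lower (1.13), and of 9 segment polarity genes tested 8 were higher and 0 lower (2.69), beside 31.6% higher and a median of 0.43 over all genes. Without the dose term 2, 2 and 6 of them were called higher and none lower. With the median gene set to no change 6, 5 and 6 were higher and 2, 0 and 0 lower. The order of the medians held under each scaling, but a new scale shifts all genes nearly alike and could hardly alter that order. The differences between lists were not tested.

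Several early segmentation genes had high labelled levels at both stages and were not called. The gap gene hb was at 1949.8 and 914 in cellular eluates against 3356 and 857 in syncytial eluates, gt at 1374 and 762 against 1502 and 401, and the pair-rule genes eve at 1689 and 949 against 1468 and 607 and run at 882 and 300.1 against 1575 and 221. In hb, gt, run and slp1 the lower-dose pair went one way and the higher-dose pair the other. The late pair-rule gene opa, which times the switch to segment polarity patterns, rose most of its list: 1734 and 1185 in cellular eluates against 97.0 and 59.6 in syncytial eluates, a log2 difference of 4.22 ± 0.22 (SE; limma adjusted p 7.77e-06, 0.0277 without the dose term). The hindgut genes fkh and byn were at 277 and 68.8 against 28.5 and 6.51 and 382 and 351 against 90.4 and 84.6 (limma adjusted p 8.40e-05 and 1.05e-04).

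Among the segment polarity genes, ci, the transcription factor at the end of Hedgehog signalling, was at 1069.7 and 798 in cellular eluates against 34.5 and 122 in syncytial eluates, and ptc, the Hedgehog receptor, at 1217 and 722 against 151 and 137. The Wnt ligand gene wg was at 125 and 91.4 against 29.2 and 17.5, and the Wnt feedback inhibitor nkd at 328 and 108 against 10.5 and 7.19. In each of the 4 the stages were well apart, with log2 differences from 2.19 ± 0.33 (wg) to 4.29 ± 0.39 (nkd; SE, limma adjusted p 6.16e-04 and 4.31e-05). The ligand gene hh rose less, to 56.3 and 19.6 against 11.2 and 6.88 (limma adjusted p 0.0171, 0.112 without the dose term). The engrailed paralogue inv, at 4.14 and 3.68 against 2.82 and 2.31, was the 1 gene of the list not called (adjusted p 0.546).

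The 8 Hox genes, which give the segments their identity, were at low levels. Of the 8, 7 were called higher and 0 lower, beside 31.6% and 13.5% of all genes, with a median log2 difference of 2.31. Their median syncytial level was 1.17. The level needed for testing could be reached in the 2 cellular eluates alone, so a lower call was hardly possible. Antp was at 84.4 and 18.2 in cellular eluates against 2.66 and 0.966 in syncytial eluates, Dfd at 59.6 and 22.3 against 2.30 and 0.576, and Ubx at 17.5 and 8.35 against 2.44 and 1.47. The log2 differences were 3.92 ± 0.61 for Antp, 4.04 ± 0.59 for Dfd and 2.17 ± 0.61 for Ubx (SE; limma adjusted p 7.72e-04, 5.32e-04 and 0.0150). Only 3 of the 7 were called without the dose term, Antp and Dfd among them; the summed level of the 8 genes was 217 and 79.3 in cellular eluates against 13.6 and 5.52 in syncytial eluates, so it differed between the doses as well.

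Along the dorsoventral axis, 11 of 16 genes of the dorsal ectoderm and BMP signalling were higher and 2 lower (median log2 difference 2.24), 8 of 13 mesoderm and gastrulation genes were higher and 1 lower (1.31), and 10 of 15 neuroectoderm and midline genes tested were higher and 3 lower (2.20). Among all genes tested, 31.6% were higher and 13.5% lower. Without the dose term the counts of the 3 lists were 9 and 1, 6 and 0, and 5 and 3. The genes that fell were scw and zen2 on the dorsal side, zfh1 in the mesoderm list and the proneural ac, l(1)sc and amos in the neuroectoderm.

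On the dorsal side, 2 early genes, zen and tsg, were high and not called, with the 2 doses going opposite ways, while others rose. The homeobox gene zen, which specifies the amnioserosa, was at 1249 and 1371 in cellular eluates against 1893 and 1202 in syncytial eluates, and the BMP-binding tsg at 681 and 1016 against 1419.9 and 947; neither was called (limma adjusted p 0.589 and 0.213). The T-box gene Doc2 was at 171 and 130.4 against 13.4 and 9.18 and the LIM-homeobox gene tup at 115 and 78.2 against 7.64 and 9.83, log2 differences of 3.64 ± 0.35 and 3.31 ± 0.43 (SE; limma adjusted p 5.75e-05 and 2.78e-04, each 0.0277 without the dose term). The TNF ligand gene egr reached 2108 and 1775 against 179 and 422 (limma adjusted p 1.35e-04).

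In the mesoderm list, the Snail gene sna, which marks the presumptive mesoderm, was at 1007 and 761 in cellular eluates against 979.7 and 560.5 in syncytial eluates and was not called (limma adjusted p 0.442). The mesodermal FGF receptor gene htl was at 159.6 and 138 against 11.8 and 12.8 and its adaptor stumps at 203 and 84.6 against 8.66 and 2.47, log2 differences of 3.49 ± 0.35 and 4.51 ± 0.43 (SE; limma adjusted p 6.21e-05 and 5.22e-05). The FGF ligand genes, made in the neuroectoderm, were lower in level: pyr at 43.1 and 19.4 against 3.39 and 1.15 and ths at 19.5 and 3.15 against 0.822 and 0.211 (limma adjusted p 0.00165 and 0.00775). The neuroblast gene mira, an adaptor for fate determinants in asymmetric division, was at 1962 and 1439.9 against 303 and 231 and rose by 2.66 ± 0.23 (SE; limma adjusted p 3.52e-05), in the neural list whose proneural members fell.

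Of 10 Bearded and Enhancer of split genes tested, which act in Notch signalling, 5 were higher and 2 lower. Over all genes the shares were 31.6% and 13.5%. The median log2 difference of the list was 0.35, and -0.07 with the median gene set to no change. Without the dose term 1 was higher and none lower. The Bearded-family genes split: Tom was at 1818 and 1046 in cellular eluates against 699.8 and 435 in syncytial eluates and Ocho at 349 and 238 against 168 and 105, both higher, while Brd and E(spl)m4-BFM (364 and 199.7 against 763 and 389) were lower. The limma adjusted p were 0.00183 for Tom, 0.00298 for Ocho, 0.00190 for Brd and 0.00442 for E(spl)m4-BFM, and between 0.0851 and 0.219 without the dose term.

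**Figure D5:**
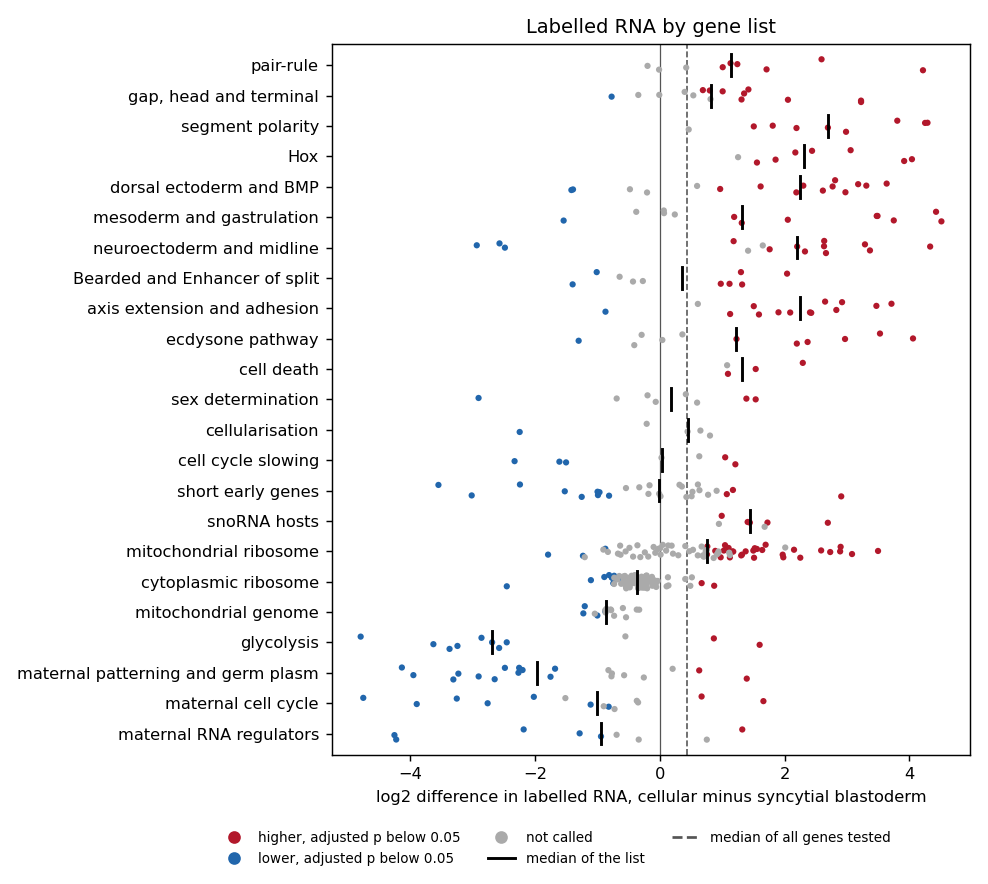
Log2 difference in labelled RNA, cellular minus syncytial blastoderm, of each tested gene of 23 lists; each point is a gene coloured by its call, the bar is the median of the list and the dashed line the median of all genes tested (0.43). The zygotic patterning lists lie mostly to the right, with single genes far to the left, and the maternal and glycolysis lists to the left.

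Genes of cell adhesion and of axis extension, the cell rearrangement that lengthens the embryo just after cellular blastoderm, rose in 12 of 14 members. Of the 14, 1 was lower, beside 31.6% higher and 13.5% lower over all genes. The median log2 difference of the list was 2.25, and 8 were higher without the dose term. Shorter lists had like shares, with 8 of 9 segment polarity genes and 7 of 8 Hox genes higher. The Toll-family receptor gene 18w was at 586 and 345 in cellular eluates against 75.5 and 45.3 in syncytial eluates, and Tollo at 307 and 141 against 44.1 and 23.7. The gap junction genes ogre and Inx2 were at 682 and 445 against 27.8 and 60.4 and 1456 and 1236 against 229.7 and 269. Both stages were far apart in each gene, with log2 differences from 2.43 ± 0.24 (Inx2) to 3.71 ± 0.35 (ogre; SE, limma adjusted p 5.81e-05 and 5.00e-05).

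Of 11 genes of ecdysone synthesis and response tested, 6 were higher and 1 lower (5 and 0 without the dose term). Of all genes tested 31.6% were higher and 13.5% lower. The enzyme genes phm and dib, which act one after the other on the way to the moulting hormone, were at 362 and 444 in cellular eluates against 38.9 and 64.9 in syncytial eluates and 209 and 209 against 10.7 and 27.1 (limma adjusted p 3.21e-05 and 6.33e-05), while sad, the next enzyme, was at 26.9 and 32.7 against 24.9 and 21.02 and was not called (adjusted p 0.521). The insulin-binding ImpL2 was at 1415 and 637 against 21.5 and 144 (limma adjusted p 6.67e-04); in the rRNA-depleted eluates it was at 18.5 and listed at 0. Of the 4 cell death genes, rpr, hid and skl were higher and grim was not called (hid alone was called without the dose term), with rpr at 206 and 116 against 61.7 and 45.0 (limma adjusted p 0.00140).

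In the list of cell cycle slowing, 2 inhibitors of mitosis rose and the phosphatases that drive division fell. Of its 7 genes tested 2 were higher and 3 lower, beside 31.6% and 13.5% of all genes. With the median gene set to no change 1 was higher and 3 lower. Z600, which holds back Cyclin A and its kinase, was at 3777 and 3972 in cellular eluates against 2134 and 1644 in syncytial eluates, and trbl, which leads to loss of the String protein, at 3650.1 and 4047 against 1664 and 1655 (limma adjusted p 0.0260 and 0.0114). The Cdc25 phosphatase genes stg and twe were at 318 and 168 against 789 and 545 and 87.3 and 153 against 366 and 345, log2 differences of -1.50 ± 0.23 and -1.61 ± 0.26 (SE; limma adjusted p 6.23e-04 and 9.33e-04). The inhibitor gene dap also fell, to 22.9 and 21.9 against 107 and 127 (adjusted p 4.12e-04). Of these 5 genes, twe and dap were called without the dose term.

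Of 8 genes of sex determination and dosage compensation, Sxl and msl-2 were higher and sc lower, near the 31.6% and 13.5% of all genes. The median log2 difference of the list was 0.18, against 0.43 over all genes tested. Without the dose term sc alone was called. The master gene Sxl was at 1895 and 1286 in cellular eluates against 739.6 and 391 in syncytial eluates (limma adjusted p 9.30e-04, 0.0659 without the dose term). The counting element sisA, at 1109 and 1113 against 2121 and 1519, had a log2 difference of -0.69 ± 0.28 and was not called (SE; limma adjusted p 0.0629); its 2 stages did not overlap, and it was called lower with the 4 eluates alone setting the scale. Of 4 genes of the Elba insulator complex, insv was higher (limma adjusted p 0.00496, 0.0841 without the dose term) and the others were not called. That count was near the share called higher over all genes. Of 6 transcription factors tested that open or activate the zygotic genome, zld, grh, opa and da were higher, and Clamp and Stat92E were not called; zld, the Zelda gene, was at 471 and 142 against 129 and 19.98 (limma adjusted p 1.88e-04, 0.167 without the dose term and 0.312 with the spread of the 7 eluates).

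The 15 largest rises among genes with a level of 10 or more were hoip, GstT4, Shroom, CG43693, Dll, CR44046, CG32369, Trim9, CG30099, stumps, CG10283, dan, mew, tinc and VepD. Of the 15, 14 had no maternal load, 15 were also higher in total RNA, and 14 were called without the dose term, VepD being the exception. The transcription factor gene dan was at 1336 and 776 in cellular eluates against 44.0 and 44.8 in syncytial eluates, a log2 difference of 4.49 ± 0.25 (SE; limma adjusted p 7.77e-06). Shroom, whose protein tightens the apical side of cells, was at 200.3 and 71.5 against 5.25 and 2.21, and the integrin gene mew at 136 and 101 against 1.92 and 8.52. The limb gene Dll was at 51.5 and 20.7 against 0.509 and 0.170. The exception in maternal load was hoip, a protein of spliceosomal and nucleolar small RNPs, with 136 in the NC 7-9 input, 74.0 and 35.2 in the NC 9-10 eluates and 43.0 and 42.5 in cellular eluates against 1.18 and 0 in syncytial eluates (log2 difference 4.89 ± 0.62 (SE), limma adjusted p 2.37e-04).

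The 15 largest falls were CG6084, del, CG12024, CG6967, Gapdh2, mtrm, zpg, ato, CG9917, CG6927, stai, Jabba, Duox, Ggt-1 and CG9896. Of the 15, 14 had a maternal load, and all 15 were lower in total RNA and called without the dose term; with the spread of the 7 eluates all but ato were called. The piRNA-pathway gene del was at 3.68 and 0.867 in cellular eluates against 182 and 69.1 in syncytial eluates, and in inputs at 13.9 and 5.71 against 166 and 61.7. The meiotic Polo inhibitor mtrm was at 5.54 and 4.82 against 153 and 178 in eluates and 13.1 and 14.1 against 185 and 167 in inputs. Jabba, which anchors histones on lipid droplets, was at 11.4 and 16.1 against 318 and 292 in eluates and 52.1 and 47.7 against 440.2 and 414 in inputs. At cellular blastoderm the eluate level of these 3 genes was below the input level in both preparations. Of all 1111 genes called lower with a maternal load, 1110 were tested in total RNA, where 694 were lower and 110 higher.

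Maternally loaded genes were set apart in 3 lists, beside 13.5% lower over all genes. Of 20 genes of maternal patterning and germ plasm, 12 were lower and 2 higher (median log2 difference -1.98); of 14 genes of the maternal cell cycle and egg activation, 7 and 2 (-1.004); and of 9 maternal RNA regulators tested, 5 and 1 (-0.94). With the dose term dropped, 10, 4 and 3 were lower. The posterior determinant osk was at 37.5 and 30.4 in cellular eluates against 742 and 499 in syncytial eluates, a log2 difference of -4.13 ± 0.24 (SE; limma adjusted p 7.77e-06). The PAN GU kinase subunit gene gnu was at 12.7 and 25.04 against 227 and 346, and bru1, a translational repressor, at 23.1 and 33.4 against 666 and 434. The repressor smg, which itself directs the loss of maternal RNA, was at 311 and 359 against 1997 and 1159.7, a log2 difference of -2.18 ± 0.28 (SE; limma adjusted p 2.30e-04). Against the trend, Cks30A was at 222 and 197 against 74.0 and 57.8. The growth repressor brat likewise was at 443 and 262 against 192 and 95.6 (limma adjusted p 5.69e-04 and 0.00125 for the 2 genes). Neither was called in total RNA, where the limma adjusted p were 0.656 and 0.997, but both were lower there when scaled by total alone. The embryonic linker histone gene BigH1 fell to 21.3 and 23.5 against 368 and 144, and the centromeric histone gene cid rose to 78.0 and 69.0 against 18.6 and 27.0 (limma adjusted p 9.67e-05 and 0.00498).

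Of 11 enzymes of glycolysis tested, 8 were lower, beside 13.5% of all genes, while Pgi and ImpL3 were higher and Pgk was not called, with a median log2 difference of -2.69, and 7 were lower without the dose term. Gapdh2 was at 3.58 and 9.26 in cellular eluates against 149.7 and 239 in syncytial eluates, PyK at 12.1 and 14.2 against 147 and 207 and Eno at 39.3 and 65.3 against 349.7 and 399 (limma adjusted p 3.11e-05, 4.45e-05 and 3.62e-05). Total RNA was lower in 9 of the 11 and higher in 1. Of 10 heat shock and stress genes 3 were higher and 3 lower, beside 31.6% and 13.5% of all genes, and 3 and 2 without the dose term. Hsp26 and Hsp27, loaded by the mother, were at 30.8 and 24.5 against 359.5 and 375 and 119 and 125 against 1771 and 975, and Thor, a brake on cap-dependent translation, was at 4857 and 3094 against 264 and 830.1 (limma adjusted p 1.60e-05, 2.36e-05 and 4.67e-04). In the rRNA-depleted eluates Thor was at 77.1 at cellular blastoderm and listed at 0 at syncytial blastoderm. Labelled Hsp83 was not called, at 1498 and 1285 against 1771 and 1734 with an adjusted p of 0.338, while its total RNA was at 433 and 401 against 1713 and 1662 (adjusted p 5.63e-04).

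The genes of the cytoplasmic ribosome depended on the scaling. Of 85 tested, 2 were higher and 11 lower, with a median log2 difference of -0.37 that was -0.79 relative to the median gene (67 lower, 0 higher) and 0.00 on the values as deposited (4 higher, 2 lower). Without the dose term none was called by limma, and the summed level was 37831 and 81238 in cellular eluates against 54873 and 91519 in syncytial eluates, so the doses differed more than the stages. Total RNA was higher in all 85, with a median log2 difference of 0.95, and in 39, with a median of 0.47, when scaled by total alone, and in the rRNA-depleted eluates 62 were at least 2-fold lower at cellular blastoderm. Near-identical copies such as RpS5a and RpS5b may share reads. Of 73 mitochondrial ribosomal genes 29 were higher and 3 lower (median 0.75), near the 31.6% higher of all genes, with 15 and 8 called when the median gene was set to no change and 6 and 1 without the dose term. An example is mRpL2 at 84.5 and 77.0 against 10.9 and 9.11 (limma adjusted p 4.67e-04). Of 7 snoRNA host genes 5 were higher and 0 lower, 3 were higher with the median gene set to no change and 1 without the dose term, with Uhg1 at 311 and 359 against 87.3 and 115 (limma adjusted p 2.98e-04), and of 11 cytoskeletal and housekeeping genes tested only alphaTub84D was called, higher, and none by limma without the dose term (adjusted p 0.0679).

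Of the 15 genes of the mitochondrial genome, 4 were lower and 0 higher, beside 13.5% and 31.6% of all genes. Their median log2 difference was -0.86, and without the dose term none was called. The mitochondrial gene mt:ND2, which codes for part of NADH dehydrogenase, had 701 and 883 in cellular eluates against 2355 and 1440.0 in syncytial eluates (limma adjusted p 0.00805). Their summed level was 175443 and 181418 in cellular eluates against 340794 and 233694 in syncytial eluates, a large part of each library, and its part in the other changes was not tested beyond the scalings given here.

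A class of 141 genes, all with a maternal load, was higher in labelled and lower in total RNA. The Mediator subunit gene MED20 was at 43.4 and 32.0 in cellular eluates against 3.04 and 14.7 in syncytial eluates (limma adjusted p 0.0143), while its inputs held 9.30 and 7.03 against 20.3 and 27.5 (adjusted p 0.00718). Nmd3, an export adaptor of the large ribosomal subunit, was at 82.7 and 66.0 against 18.2 and 18.2 in eluates and 17.8 and 17.1 against 28.4 and 30.1 in inputs (limma adjusted p 0.00228 and 0.0264). Of the 141, 21 were called in labelled RNA without the dose term. The number was 34 with the median gene set to no change and 63 when the 4 eluates alone set the scale. No gene passed the test of the difference itself with the dose term in the fit. The opposite class, lower in labelled and higher in total RNA, held 119 genes, 110 of them with a maternal load, led by RpS10a, whose reads may be shared with RpS10b, at 2.36 and 24.9 in eluates of cellular blastoderm against 47.9 and 52.2 at syncytial blastoderm; 0 of the 119 were called by limma without the dose term, 24 were lower on the values as deposited, and 16 were higher in total RNA when scaled by total alone.

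Markers of other cells were checked beside these results. All 7 pole cell genes tested, vas, nos, pgc, gcl, osk, ovo and zpg, were lower, 5 of them without the dose term, and their summed level was 153 and 212 in cellular eluates against 1541.6 and 1345 in syncytial eluates; all 7 carry a maternal load and were lower in total RNA. Of 10 hemocyte and yolk genes 3 passed the level filter, srp, gcm and Yp3, and all 3 were higher (none by limma without the dose term), with summed levels of 383 and 86.9 against 28.9 and 9.40. Of 15 genes of older embryo tissues 7 passed, and elav, Mlc2, Act87E, Hand and pros were higher, 3 of them without the dose term. The 7 had summed levels of 190 and 52.3 against 10.1 and 7.72. Over all genes tested 31.6% were called higher and 13.5% lower. The median syncytial level was 4.84 for the 3 hemocyte and yolk genes and 1.06 for these 7. The filter could be passed in the 2 cellular eluates alone, which leaves little room for a lower call in either list. Among the older-tissue genes that did not pass, the glial repo and the muscle Mhc stayed below 1 in all 4 eluates. Mlc1 (2.26) and futsch (2.21) were above 1 in the 250 mM cellular eluate and below 1 in the other eluates. Of 15 follicle cell genes only psd passed, at 1.38 and 0.195 against 2.97 and 0. Cp36 and Cp38 were listed at 0, while Cp18 (3.01 and 0.924), Vm26Ab (1.68 and 0) and Cp19 (1.09 and 0) had signal in cellular eluates. All of these but psd were listed at 0 in both syncytial eluates. The part of these cells or of older embryos in the changes was not tested.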

How the data were processed

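RNA of staged Drosophila embryos was sequenced before and after pull-down of 5-EU-labelled RNA. The authors deposited 1 table of RPKM values (reads per kilobase of transcript, scaled to library depth) per library type, in which the lowest value is 1 (read here as 1 added to each), and the submitters' processing notes name STAR, HTSeq and the dm6 build. The 4 eluates of the comparison were picked by stage, fraction and dose in the labels. From each value 1 was taken off, the library was scaled to 1000000 and then by the median of ratios over the 21 poly(A) libraries, using 6294 genes above 0 in all of them. Genes with a level of 1 or more in at least 2 of the 4 eluates were tested with limma 3.58.1 in R 4.3.3 (empirical Bayes with a mean trend, two-sided, Benjamini-Hochberg adjustment) on log2(level + 1), with terms for stage and dose, and the fold changes on this scale understate those of low genes. The inputs, and the eluate less the input of each preparation, were tested likewise, and the 2 rRNA-depleted eluates were compared by a 2-fold rule. The steps were tested on simulated data.

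The table holds no counts, so depth was estimated from the steps between low values. Whole reads could not be recovered: in the 4 eluates 78.1% to 85.3% of low values lay within 0.02 of a whole step, and no count test was run. Libraries of the same dose deviated together from their stage means (r 0.431 across 8448 genes in eluates and 0.610 in inputs), with the pairing taken from the dose in the labels. Symbols matched the BDGP6.54 annotation of dm6 for 16330 of 16407 genes (99.5%), 3692 of them by a synonym, and coordinates are from that annotation.

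The 15 largest rises and the 15 largest falls among called genes with a level of 10 or more, moving the same way at both doses, were named, with up to 6 called and 2 uncalled members of each list of over 10 genes and any member of a shorter list. Genes in counts of 5 or fewer, and those without a maternal load that fell, were named after their values were seen. The comparison and the lists were chosen with earlier results of these data known. The design also foresaw printing promoters, for which no sequence was used here. Alternatives covered the dose term, the libraries that give the spread, scaling, pseudocount, filter and each library left out.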

Additional observations from a re-analysis of the deposited data

How the results depend on the processing

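The limma fit without the replicate block (the dose term) called 1542 genes in labelled RNA, 2652 in total RNA and 1871 in the test of their difference, against 3817, 4728 and 0 with it. The count in labelled RNA was within 1.5 times the 3817 under the other scalings, pseudocounts, filters and pools of libraries (2821 to 4702). The difference test passed 3589 genes with a pseudocount of 5 and 1941 with libraries scaled by their total alone, and the cause was not tested. With 1 library left out the range was 0 to 1339 genes in labelled RNA, 0 to 1529 in total RNA and 0 to 1564 in the difference. Those fits hold 3 libraries with the stage alone, and the lone library of a stage is assumed to vary like the pair. At an unadjusted limma p below 0.05 the counts of 0 stood beside 1725 higher and 1141 lower (without the 250 mM cellular library) and 1424 and 1309 (without the 50 mM cellular library) in total RNA. In the difference they stood beside 1495 and 824 without the 250 mM cellular library, 1644 and 1248 without the 50 mM cellular library and 1992 and 914 without the 250 mM syncytial library.

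Of 153 named genes 131 were called. Of the 131, 45 lost their call without the dose term, 35 with the spread of 7 eluates and 22 with that of 21 libraries. On the values as deposited and with a pseudocount of 0.1, 8 each lost it. No called gene among them changed sign. Genes that were not called did: on the values as deposited the log2 difference was 0.17 for run, 0.16 for dunk, 0.026 for hb, 0.36 for slp1, 0.17 for zen, 0.042 for CG15382 and 0.034 for Hsp83. With the median gene set to no change, an alternative chosen after seeing the data, it was -0.023 for gt, -0.18 for sna, -0.059 for sad, -0.29 for Clamp and -0.26 for Stat92E. With the 4 eluates alone setting the scale it was -0.050 for sna, -0.16 for Clamp and -0.13 for Stat92E. Scaled by total alone it was -0.024 for Clamp, and with a pseudocount of 0.1 it was 0.26 for psd. With 1 library left out, the log2 difference ran from -1.61 to 1.22 for run, from -0.26 to 1.56 for bnk, from -0.57 to 0.15 for dunk and from -1.33 to 0.64 for hb. It ran from -0.55 to 1.35 for gt, from -0.21 to 1.06 for eve, from -0.57 to 0.54 for slp1, from -0.53 to 0.12 for zen and from -0.16 to 0.64 for sna. For Clamp the range was -0.026 to 0.29, for Stat92E -0.035 to 0.35 and for psd -1.23 to 0.75.

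Each stage had 2 libraries at unlike doses, so differences near the spread between doses could not be resolved. The 50 mM syncytial library was estimated at 4230000 reads, and low levels there rest on few reads. In 8 genes of the 33 the mean syncytial level was below 10. No interval for counting error was given, since the files hold no counts.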
